A study of Rattus norvegicus with 10 samples.

Results

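The genes described here are 10 immediate early genes, 1 of which encodes a MAP kinase phosphatase. They are Fos, Fosb, Fosl1, Jun, Junb, Egr1, Nr4a1, Ier2, Myc and Dusp1. They were listed by name with earlier results of these data known, and every probe set that the platform annotation gives to 1 of these symbols was taken. The array held all 10 genes in 14 probe sets, of 31042 probe sets in all. Jun had 3 probe sets, Fos and Dusp1 had 2 each, and the other 7 genes had 1 each. All 14 lay above the filter on low values, which left out the 25% of probe sets with the lowest mean over all arrays and kept 23281.

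Ventricular cardiomyocytes of neonatal Lewis rats, taken at 0 to 3 days of age, were grown in primary culture and measured on 10 Affymetrix arrays. The first group was electrically pulsed at 1 Hz and 2 V/cm for 3 days in medium with 10 µmol/L blebbistatin (n = 3 arrays). The second was pulsed in the same way without blebbistatin (n = 4), and the third was left non-pulsed and untreated for the same 3 days (n = 3). Blebbistatin inhibits the ATPase of myosin II and so stops contraction while the electrical signal continues. Non-pulsed cells with blebbistatin were not analysed here, so an effect of the compound without pulsing cannot be told apart from its effect on pulsed cells. The arrays came from 4 series of cell isolation and culture, numbered 1 to 4 here. Series 1 holds a pulsed and a non-pulsed array, series 2 and 3 hold all 3 groups, and series 4 holds a pulsed array with blebbistatin and a pulsed array. Each array carried RNA pooled from duplicate experiments. Culture series was a block in the fit, which takes out differences in level between series. Each p-value below thus sets a fitted change against how far the differences between groups varied from series to series. That spread was moderated with a value drawn from all probe sets tested. The design text speaks of 3 arrays per treatment, but 4 arrays are labelled as pulsed, and the 4 were all kept.

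All 10 cardiomyocyte markers listed lay above the filter, and their summed linear level was 85195 to 86905 in pulsed cultures with blebbistatin, 79579 to 96277 in pulsed cultures and 67791 to 86908 in non-pulsed cultures. The cultures also held RNA of other cells, since all 10 fibroblast, 8 smooth muscle and pericyte, and 8 macrophage and leukocyte markers were on the array and above the filter on at least 1 array. Array medians were 6.57 to 6.78 on the log2 scale. The difference between 3' and 5' control probe sets was 0.45 to 0.77 for beta-actin, 0.06 to 0.23 for GAPDH and 0.80 to 1.04 for hexokinase (log2).

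Immediate early genes are transcribed soon after a stimulus reaches a cell, without new protein synthesis, and their transcripts are short-lived. Many carry CArG boxes bound by serum response factor and its ERK-activated partners, or cyclic AMP response elements bound by CREB, which calcium and cyclic AMP signals activate. FOS and JUN proteins pair to form the AP-1 transcription factor, while DUSP1 removes the activating phosphates of p38, JNK and ERK and so feeds back on the pathway. In cardiac muscle cells these genes are known for their response to stretch, endothelin and adrenergic agonists. The question that the comparisons address is whether these genes differed between cells that were paced for days and non-pulsed cells. The other question is whether they differed between paced cells without and with the inhibitor of contraction.

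RefSeq promoters of rat assembly GRCr8, from 250 bases before to 50 bases after the gene's start, were at hand for 7 of the 10 genes (Fosb, Fosl1, Junb, Egr1, Nr4a1, Ier2 and Dusp1). The full cyclic AMP response element TGACGTCA stood in the Dusp1 and Ier2 promoters, 2 of 7, and in 1.83% of all 33469 promoters of that length. Its shorter core TGACG, searched on both strands and also contained in the full element, stood in 6 of 7, all but Fosb, and in 21.2% of all promoters. A full element counts as 2 overlapping copies of the core, 1 on each strand. Counted so, Nr4a1 held 4 copies of the core, Dusp1 held 3, Fosl1, Egr1 and Ier2 held 2 each, and Junb held 1. The 3 promoters below are shown because they hold the full element or the most copies of the core. They are written 5′ to 3′ on the gene's strand, which is the plus strand for all 3, with the core in capitals (TGACG, or CGTCA where it lies on the other strand). Dusp1 is at chr10:17184603-17184902, Ier2 at chr19:40399123-40399422 and Nr4a1 at chr7:134259888-134260187.
Dusp1: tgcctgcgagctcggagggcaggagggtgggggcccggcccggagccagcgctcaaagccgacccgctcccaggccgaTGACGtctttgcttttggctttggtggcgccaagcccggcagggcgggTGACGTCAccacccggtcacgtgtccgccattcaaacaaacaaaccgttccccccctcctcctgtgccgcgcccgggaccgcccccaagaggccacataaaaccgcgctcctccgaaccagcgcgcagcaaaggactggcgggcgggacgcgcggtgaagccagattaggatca
Ier2: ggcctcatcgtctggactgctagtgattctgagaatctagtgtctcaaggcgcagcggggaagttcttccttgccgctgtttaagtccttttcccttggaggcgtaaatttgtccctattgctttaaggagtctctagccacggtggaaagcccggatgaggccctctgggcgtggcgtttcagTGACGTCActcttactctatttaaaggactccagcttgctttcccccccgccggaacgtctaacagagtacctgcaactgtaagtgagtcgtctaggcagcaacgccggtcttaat
Nr4a1: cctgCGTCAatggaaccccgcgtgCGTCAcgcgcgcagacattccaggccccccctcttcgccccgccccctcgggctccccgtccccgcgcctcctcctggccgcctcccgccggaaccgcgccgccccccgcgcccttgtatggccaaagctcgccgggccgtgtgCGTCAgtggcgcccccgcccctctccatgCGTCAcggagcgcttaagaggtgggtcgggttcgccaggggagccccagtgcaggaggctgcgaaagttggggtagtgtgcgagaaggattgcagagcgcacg
The full element begins 124 bases before the start of Dusp1 and 66 bases before that of Ier2, and the 4 cores of Nr4a1 begin 246, 226, 82 and 53 bases before its start. CArG boxes, matched by their usual consensus, were found in Egr1 alone of the 7, with 2 boxes that begin 105 and 83 bases before its start, and in 1.64% of all promoters. These motifs too were searched on both strands. The EGR motif GCGNGGGCG was found on the other strand of Nr4a1, 1 of 7 against 4.98% of all promoters. TATAAA was found on the gene's strand of Junb and only on the other strand of Fosb, 2 of 7 against 14.2%. The AP-1 motif TGANTCA was in 0 of 7 against 7.33%. Such a match describes letters in this window and is not a measured binding site.

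Values below are the deposited log2 values of each probe set, on which a difference of 1 is a 2-fold difference, and the level of 1 probe set cannot be set against that of another. They are given in the order of the culture series, which is series 2, 3 and 4 for pulsed cultures with blebbistatin, series 1 to 4 for pulsed cultures and series 1 to 3 for non-pulsed cultures.

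**Figure D1:**
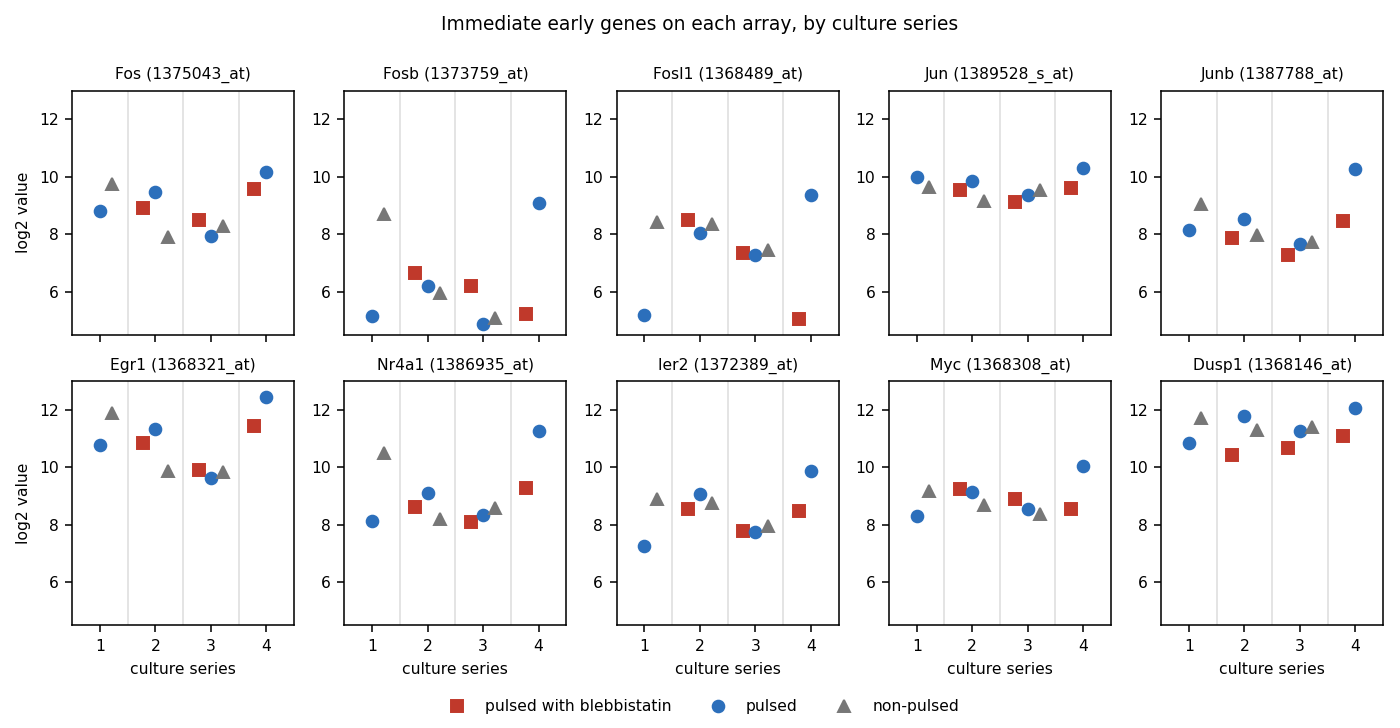
Deposited log2 value (vertical axis) of 1 probe set for each of the 10 genes on all 10 arrays, by culture series (horizontal axis). Squares are pulsed cultures with blebbistatin, circles pulsed cultures and triangles non-pulsed cultures, 1 array each. The pulsed array of series 4 is the highest point in every panel, and Fosb and Fosl1 spread the most.

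Among the FOS proteins, Fos encodes the founding partner in AP-1. Its probe set 1375043_at measured 8.90, 8.51 and 9.57 in pulsed cultures with blebbistatin, 8.80, 9.48, 7.95 and 10.16 in pulsed cultures, and 9.74, 7.92 and 8.28 in non-pulsed cultures. The 3 groups overlapped, and the pulsed arrays alone spanned nearly the whole range. The other Fos probe set, 1371283_at, lay between 5.49 and 5.83 on every array. Its range of 0.34 compares with a median range of 0.72 over all probe sets tested, and it did not follow 1375043_at, whose range was 2.24.

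Fosb encodes a FOS relative that also pairs with JUN proteins. It measured 6.67, 6.19 and 5.22 in pulsed cultures with blebbistatin, 5.14, 6.20, 4.88 and 9.10 in pulsed cultures, and 8.70, 5.95 and 5.09 in non-pulsed cultures. Only 2 arrays, the pulsed array of series 4 and the non-pulsed array of series 1, lay above 6.67. Fosl1, which encodes the FOS relative FRA-1, measured 8.51, 7.36 and 5.07 with blebbistatin, 5.19, 8.04, 7.29 and 9.35 in pulsed cultures, and 8.44, 8.37 and 7.46 in non-pulsed cultures. Here 2 arrays were low, the series 4 array with blebbistatin and the pulsed array of series 1, and the other 8 lay between 7.29 and 9.35. On the linear scale the highest array was 18.6-fold above the lowest for Fosb and 19.5-fold for Fosl1, the widest spans of the 10 genes.

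Jun encodes the main JUN partner of AP-1. Its probe set 1389528_s_at measured 9.53, 9.12 and 9.61 in pulsed cultures with blebbistatin, 9.99, 9.85, 9.37 and 10.32 in pulsed cultures, and 9.64, 9.14 and 9.55 in non-pulsed cultures. The pulsed arrays of series 1, 2 and 4 were the 3 highest. All 3 Jun probe sets had the same sign in each of the 8 differences between arrays of a series, and their ranges were 1.1 to 1.23. Junb, whose product is a weaker transactivator than JUN, measured 7.88, 7.29 and 8.47 with blebbistatin, 8.16, 8.52, 7.67 and 10.28 in pulsed cultures, and 9.06, 7.96 and 7.72 in non-pulsed cultures. Apart from 10.28 in the pulsed array of series 4 and 9.06 in the non-pulsed array of series 1, Junb lay between 7.29 and 8.52 in all groups.

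Egr1 encodes a zinc finger transcription factor. It measured 10.87, 9.90 and 11.46 in pulsed cultures with blebbistatin, 10.78, 11.35, 9.64 and 12.47 in pulsed cultures, and 11.91, 9.86 and 9.86 in non-pulsed cultures. All arrays of series 3 were low, between 9.64 and 9.90, whatever the treatment. Nr4a1, an orphan nuclear receptor gene, measured 8.62, 8.09 and 9.30 with blebbistatin, 8.12, 9.12, 8.35 and 11.26 in pulsed cultures, and 10.51, 8.22 and 8.58 in non-pulsed cultures. As for Fosb and Junb, the pulsed array of series 4 and the non-pulsed array of series 1 were the highest.

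Ier2, which encodes a nuclear protein of the immediate early response, measured 8.55, 7.77 and 8.48 in pulsed cultures with blebbistatin, 7.25, 9.09, 7.76 and 9.86 in pulsed cultures, and 8.89, 8.77 and 7.96 in non-pulsed cultures. The pulsed arrays were both the lowest and the highest. Myc, a transcription factor of growth and ribosome production, measured 9.26, 8.91 and 8.54 with blebbistatin, 8.30, 9.14, 8.55 and 10.06 in pulsed cultures, and 9.18, 8.71 and 8.37 in non-pulsed cultures. Its groups overlapped, and 1 array, pulsed series 4, lay above 9.26.

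Dusp1 encodes the MAP kinase phosphatase MKP-1. Its probe set 1368146_at measured 10.42, 10.67 and 11.10 in pulsed cultures with blebbistatin, 10.84, 11.79, 11.28 and 12.07 in pulsed cultures, and 11.74, 11.32 and 11.41 in non-pulsed cultures. Its second probe set, 1368147_at, measured 8.22, 8.43 and 8.87 with blebbistatin, 8.52, 9.94, 8.94 and 10.17 in pulsed cultures, and 9.85, 9.46 and 9.40 in non-pulsed cultures. In both probe sets every array with blebbistatin lay below every non-pulsed array, which held for 6.9% of all probe sets tested. The pulsed array of series 1 lay within the range of the arrays with blebbistatin. The 2 probe sets had the same sign in all 8 differences within series.

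The pulsed array of series 4 was the highest of the 10 arrays for 13 of the 14 probe sets, and it was so for 10.3% of all probe sets tested. The exception was Fos 1371283_at. Among the 4 pulsed arrays, series 4 was the highest for the same 13, against 27.4% of all. With 1 probe set per gene, the mean deviation of the 10 genes from their own means over the arrays was 0.01, -0.53 and -0.23 in pulsed cultures with blebbistatin, -0.65, 0.35, -0.63 and 1.58 in pulsed cultures, and 0.87, -0.29 and -0.48 in non-pulsed cultures. So the pulsed group held both the highest array and the 2 lowest ones. Macrophage and leukocyte markers were also high in the pulsed array of series 4 and the non-pulsed array of series 1, but in the pulsed array of series 1 too, at summed linear levels of 1933, 1409.7 and 2910.1 with blebbistatin, 4547, 2949, 1554 and 4962 in pulsed cultures, and 5944, 2907 and 1739 in non-pulsed cultures. The summed cardiomyocyte markers were lowest in the non-pulsed array of series 1, at 67791, and next lowest in the pulsed array of series 4, at 79579. They lay between 83960 and 96277 on the other arrays. The part of these cells in the array profile was not tested. In RNA of mixed cultures, fewer cells of a type and less RNA per cell cannot be told apart.

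The 10 genes varied more than most. Leaving aside Fos 1371283_at, which was at the 6.32 percentile, their ranges over the arrays were 1.1 to 4.29 on the log2 scale, at the 78.2 to 99.8 percentile of all probe sets tested. By group mean, pulsed cultures were highest in 9 of the 14 probe sets and non-pulsed cultures in 5. Cultures with blebbistatin were lowest in 9 and non-pulsed cultures in 5. Groups overlapped for every gene but Dusp1, and there only cultures with blebbistatin and non-pulsed cultures did not. That was 2 of the 14 probe sets, against 24.5% of all probe sets tested. These groups do not hold the same series. For Nr4a1 the means were 8.67 ± 0.61 (SD, n = 3) with blebbistatin, 9.21 ± 1.43 (SD, n = 4) in pulsed cultures and 9.10 ± 1.24 (SD, n = 3) in non-pulsed cultures. For Dusp1 1368146_at they were 10.73 ± 0.34 (SD, n = 3), 11.49 ± 0.55 (SD, n = 4) and 11.49 ± 0.22 (SD, n = 3) in the same groups.

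**Figure D2:**
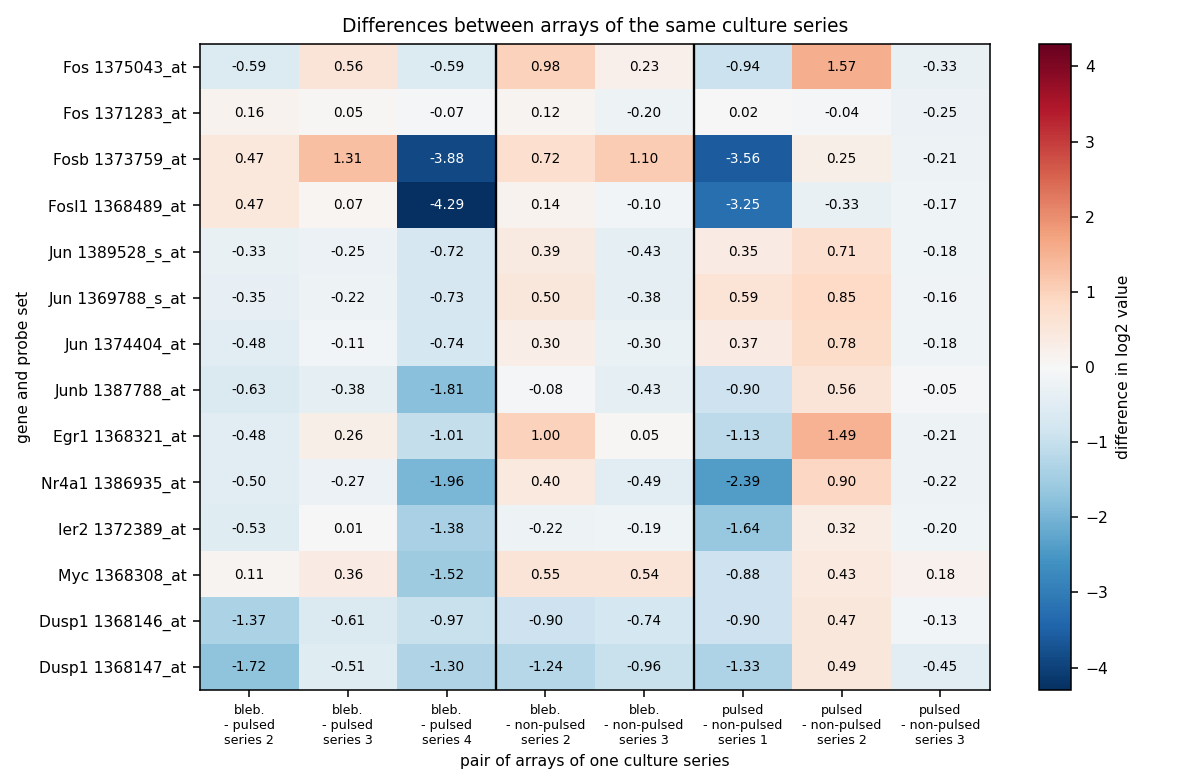
Difference in log2 value between 2 arrays of the same culture series (columns) for each of the 14 probe sets (rows), first group minus second group. Blue is lower and red is higher in the first group. Fosb and Fosl1 show -3.88 and -4.29 in series 4 with blebbistatin against pulsed, and -3.56 and -3.25 in series 1 pulsed against non-pulsed. Dusp1 and Junb are below 0 in every column with blebbistatin.

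Pulsed against non-pulsed cultures gave a different answer in each of the 3 series that hold both. In series 1 most were lower in the pulsed array, though not Jun, by 11.8-fold for Fosb, 9.50-fold for Fosl1, 5.24-fold for Nr4a1 and 3.11-fold for Ier2. In series 2 most were higher, by 2.97-fold for Fos 1375043_at and 2.80-fold for Egr1. In series 3 they differed little, with differences of -0.45 to 0.18 on the log2 scale. A series holds 1 array per group, so the disagreement between series has no replicate and was not tested.

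Counted over the 14 probe sets, 10 were lower in the pulsed array of series 1, against 37.2% of all probe sets tested, and 6 were lower by over 2-fold, against 1.16%. Series 2 had 12 higher, against 57.5%, and 2 higher by over 2-fold, against 0.369%. Series 3 had 13 lower, against 44.9%, and 0 lower by over 2-fold, against 0.0387%. Median differences over the 14 were -0.92, 0.52 and -0.19 in series 1, 2 and 3, beside 0.10, 0.04 and 0.02 over all probe sets tested. No gene was higher in all 3 series, against 24.1% of all probe sets. Fosl1 alone was lower in all 3, against 10% of all, and the other 13 probe sets differed in direction between series, against 65.8%.

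Over all series, 0 of the 14 probe sets passed at an adjusted p under 0.05 (limma with culture series as a block, Benjamini-Hochberg over 23281 probe sets), as did 0% of all. At an unadjusted p under 0.05, limma gave 1 of 14, Jun 1369788_s_at, which was higher, against 7.71% of all higher and 9.08% in either direction. Its fitted log2 change was 0.47 (SE 0.20, 95% interval 0.02 to 0.93, adjusted p 0.540 by limma), with differences of 0.59, 0.85 and -0.16 in series 1, 2 and 3. The other Jun probe sets had 0.37 and 0.34. Fitted changes were -0.56 for Fosb (95% interval -3.14 to 2.01), -0.67 for Fosl1 (-3.01 to 1.67) and -0.34 for Nr4a1 (-1.75 to 1.08), and each of these intervals holds both directions. The median fitted change was -0.02 over the 14 and 0.04 over all probe sets, and 7 of 14 were negative, against 38.9%. The groups overlapped for every one of the 14, while they did not for 7.34% of all. With series 1 left out, that median was 0.44 and 1 of 14 changes was negative, and with series 2 left out it was -0.45 and 11 were negative.

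Pulsed cultures with blebbistatin against pulsed cultures differed most in series 4. There all 14 probe sets were lower in the array with blebbistatin, by 19.5-fold for Fosl1, 14.7-fold for Fosb, 3.89-fold for Nr4a1, 3.51-fold for Junb and 2.87-fold for Myc. In series 2 and 3 Fosb, Fosl1 and Myc were instead higher with blebbistatin, by 2.47-fold for Fosb in series 3. Dusp1, Jun, Junb and Nr4a1 were lower with blebbistatin in all 3 series. Dusp1 1368147_at was lower by 3.3-fold in series 2, 1.42-fold in series 3 and 2.46-fold in series 4.

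In series 4, 14 of 14 lower compares with 42.5% of all probe sets tested, and 8 of 14 lower by over 2-fold compares with 1.58%. Series 2 had 10 lower, against 45.5%, and 2 of them, both of Dusp1, by over 2-fold, against 0.902%. Series 3 had 7 lower, against 47.2%, and 1 higher by over 2-fold, Fosb, against 0.189%. The 7 probe sets that were lower in every series, which are those of Dusp1, Jun, Junb and Nr4a1, compare with 15.2% of all. Median differences were -0.48, -0.05 and -1.15 in series 2, 3 and 4. The series 4 values rest on the pulsed array that was the highest for nearly all of these genes.

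Across series, 0 of the 14 passed at an adjusted p under 0.05 (limma, Benjamini-Hochberg), against 0.0129% of all, and the smallest adjusted p among them was 0.298. At an unadjusted p under 0.05, limma gave 4 of 14, all lower (both Dusp1 probe sets and 2 of Jun), against 5.51% of all. Dusp1 1368146_at had a fitted log2 change of -0.87 (SE 0.23, 95% interval -1.40 to -0.33, adjusted p 0.298 by limma), and 1368147_at had -1.02 (SE 0.31, 95% interval -1.75 to -0.29, adjusted p 0.316 by limma). The 3 Jun probe sets had -0.45, -0.44 and -0.43, with adjusted p of 0.434, 0.406 and 0.420 by limma. Junb had -0.79 (SE 0.34, 95% interval -1.58 to 0.01, adjusted p 0.440 by limma). For Fos 1375043_at the change was -0.02 with a 95% interval of -0.99 to 0.95, and for Egr1 it was -0.19 with one of -1.23 to 0.84. The median over the 14 was -0.44, against 0.02 over all, and 13 of 14 were negative, against 44.5%. The groups overlapped for all 14, while they did not for 9.85% of all. Without series 4 the median was 0.05 and 6 of 14 were negative.

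Pulsed cultures with blebbistatin against non-pulsed cultures share series 2 and 3. Dusp1 was the only gene of the 10 whose groups did not overlap, in 2 of 14 probe sets, against 24.5% of all probe sets without overlap and 6.9% lower without overlap. It was lower with blebbistatin by 1.87-fold and 2.36-fold in series 2 and by 1.68-fold and 1.95-fold in series 3, in 1368146_at and 1368147_at. Egr1 and Fos 1375043_at were 2.01-fold and 1.98-fold higher with blebbistatin in series 2, and 1.03-fold and 1.17-fold higher in series 3. Fosb was higher in both, by 1.64-fold and 2.14-fold, and so was Myc, by 1.46-fold in each.

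Counted over both series, 4 of 14 probe sets were higher in both, against 38.7% of all, and 4 were lower in both, against 25.3%. The lower ones were both Dusp1 probe sets, Junb and Ier2. Of the 14, 0 passed at an adjusted p under 0.05 (limma, Benjamini-Hochberg), against 0.472% of all. At an unadjusted p under 0.05, limma gave 2 of 14, both of Dusp1 and lower, against 6.89%. Their fitted log2 changes were -1.03 (SE 0.26, 95% interval -1.64 to -0.42, adjusted p 0.0969 by limma) in 1368146_at and -1.41 (SE 0.35, 95% interval -2.23 to -0.59, adjusted p 0.0963 by limma) in 1368147_at. These fitted values also draw on the pulsed arrays through the series effects, and so on series 1 and 4. For that reason Fosb had a fitted change of -0.76 although it was higher with blebbistatin in both series, and Fosl1 had -1.49 beside differences of 0.14 and -0.10. The median fitted change was -0.42, against 0.07 over all probe sets, and 12 of 14 were negative, against 39%, while the median differences were 0.34 in series 2 and -0.25 in series 3. With only the series that hold both groups in the fit, the median over the 14 was -0.011 and 7 of 14 were negative.

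**Figure D3:**
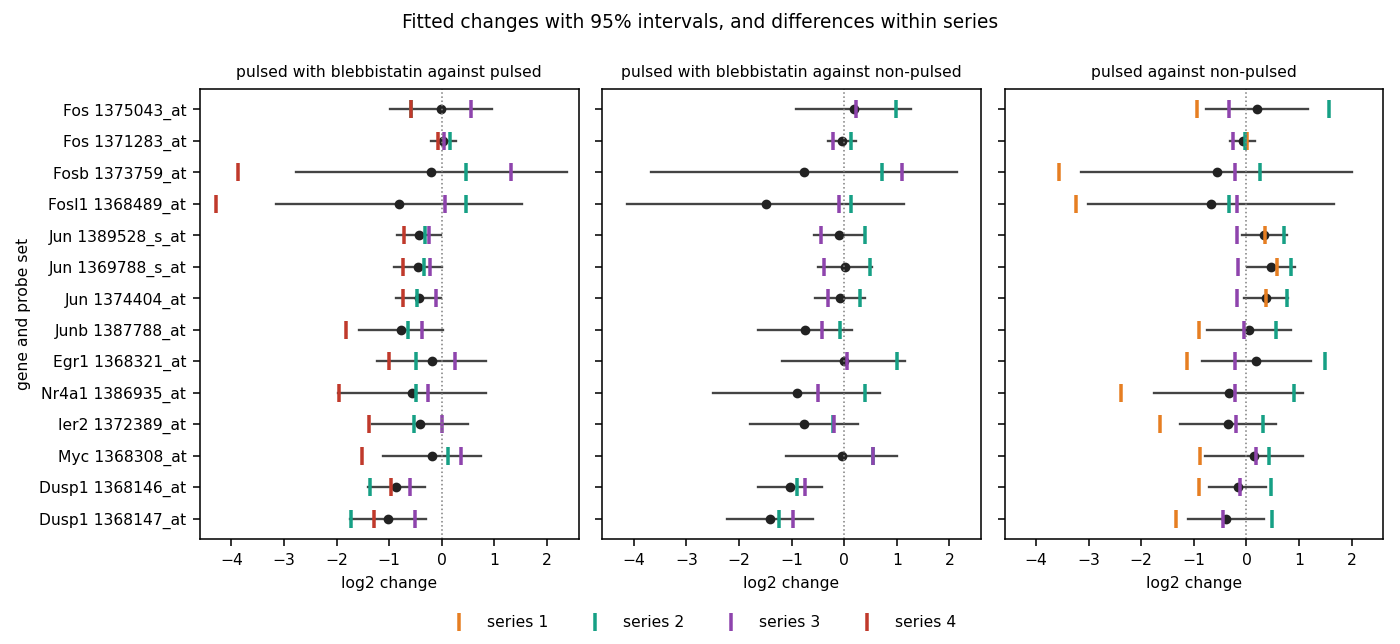
Fitted log2 change (black points) with its 95% interval (lines) for the 14 probe sets in the 3 comparisons, and the difference in each culture series (coloured ticks). The intervals of Dusp1 lie below 0 in both comparisons with blebbistatin, whereas those of Fosb and Fosl1 span several log2 units. The black points come from all 10 arrays and can lie outside the ticks.

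The 3 comparisons share arrays in pairs, so they are not independent of each other. For Dusp1 1368146_at the 3 fitted changes side by side were -0.87 for blebbistatin against pulsed, -1.03 for blebbistatin against non-pulsed and -0.17 for pulsed against non-pulsed. For Junb they were -0.79, -0.74 and 0.04, and for Jun 1389528_s_at -0.43, -0.09 and 0.34. Dusp1, Junb and Jun 1389528_s_at were thus lower with blebbistatin than in both other groups by point estimate. So were Fosb, Fosl1, Egr1, Nr4a1, Ier2 and Myc, though each of these was higher with blebbistatin in some series. Jun 1389528_s_at was highest in pulsed cultures. Only the Dusp1 intervals lay below 0 in both comparisons with blebbistatin.

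Genes linked to the 10 were counted in 10 lists, and 0 genes of any list passed at an adjusted p under 0.05 in any comparison (limma, Benjamini-Hochberg). At an unadjusted p under 0.05, limma gave 14 of the 98 genes tested lower and 2 higher with blebbistatin against pulsed, where 5.51% of all probe sets were lower and 6.09% higher. With blebbistatin against non-pulsed it gave 13 lower and 5 higher, against 6.89% and 15.5% of all. In pulsed against non-pulsed it gave 5 higher and 0 lower, against 7.71% and 1.36% of all. The other MAP kinase phosphatases, which differ in whether they limit ERK, p38 or JNK, numbered 8 tested of 10 listed. Their median change was -0.17 with blebbistatin against pulsed, -0.16 with blebbistatin against non-pulsed and 0.00 in pulsed against non-pulsed. Dusp6, which acts on ERK in the cytoplasm, differed by 0.07, 0.05 and -1.22 with blebbistatin against pulsed in series 2, 3 and 4, and by -1.06, 0.59 and -0.16 in pulsed against non-pulsed in series 1, 2 and 3. That is the sequence of signs seen for Myc in the first of these comparisons and for Egr1 in the second. Dusp5, a nuclear ERK phosphatase, had the largest change of the list in pulsed against non-pulsed, 0.59 (SE 0.27), and was higher in all 3 series. Dusp14 had the largest with blebbistatin against pulsed, -0.59 (SE 0.19), and was lower in all 3 series by 0.12, 0.77 and 1.04 on the log2 scale.

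Dusp2, an inducible nuclear phosphatase of lymphoid and other cells, was higher by 0.93 and 0.88 with blebbistatin against pulsed in series 2 and 3 and lower in series 4, at -1.68. Dusp4 had -0.32 fitted, Dusp7 -0.38, Dusp8 0.07 and Dusp10 -0.15 in the same comparison. Of the 8 phosphatases, Dusp14 alone was lower with blebbistatin than in the pulsed array in all 3 series, as both Dusp1 probe sets were. Dusp9 was below the filter, and Dusp16 was not matched on the array.

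Relatives of Egr1 and Nr4a1 (the EGR, NR4A and KLF list, 10 tested of 11) had a median of -0.54 with blebbistatin against pulsed, and of -1.17 in series 4. Of the 10, 9 were negative, against 44.5% of all probe sets tested, whose median in series 4 was 0.05. Egr2 had -0.72 (SE 0.70), with differences of -0.71, -0.06 and -2.52 in series 2, 3 and 4. In pulsed against non-pulsed the largest was Nr4a3 at -0.66 (SE 0.75), with -3.07, 0.24 and -0.18 in series 1, 2 and 3. AP-1 partners other than the 5 described above (9 tested of 10) had a median of -0.10 with blebbistatin against pulsed. Their largest change there was that of Atf3, a stress-induced bZIP factor, 0.55 (SE 0.56), higher with blebbistatin by 0.76 and 1.12 in series 2 and 3 and lower in series 4, at -1.09.

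The 21 other early response genes tested, of 22 listed, had a median of -0.31 with blebbistatin against pulsed, and of -0.94 in series 4. Of the 21, 19 were negative, against 44.5% of all probe sets tested. Ptgs2, the inducible cyclooxygenase, had the largest changes of the list in all 3 comparisons, -1.28 (SE 0.91) for blebbistatin against pulsed, -2.28 (SE 1.02) for blebbistatin against non-pulsed and -1.0 (SE 0.91) for pulsed against non-pulsed. Its difference was -4.14 in series 4 with blebbistatin against pulsed and -3.65 in series 1 in pulsed against non-pulsed. The other series differed by -0.70 and -0.32 (series 2 and 3) in the first of these and by -0.01 and -0.76 in the second. With blebbistatin against non-pulsed the differences in series 2 and 3 were -0.72 and -1.08, both smaller than the fitted change.

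Upstream, the kinases of the MAP kinase cascade (11 tested of 18) had medians of 0.04, 0.15 and 0.10 in the comparisons in the same order, and the SRF, TCF and CREB factors (11 tested of 12) had -0.00, 0.12 and 0.17. Srf itself, the CArG box factor, had -0.19 (SE 0.15) with blebbistatin against pulsed. The 4 ERK feedback inhibitors tested, of 6, had -0.37 with blebbistatin against pulsed, and Errfi1, an inhibitor of the EGF receptor, had the largest change, -1.15 (SE 0.59), with -1.03, -0.84 and -2.62 in series 2, 3 and 4. Growth factor ligands (7 tested of 9) had a median of -0.45, with Hbegf, an EGF receptor ligand, at -1.22 (SE 0.63) and at -0.78, -0.50 and -3.26 by series. All probe sets had medians of 0.02, 0.07 and 0.04 in the same order, so the lists of kinases and factors lay close to them.

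Downstream, AP-1 associated targets (8 tested of 12) had a median of -0.33 with blebbistatin against pulsed, and Plaur, the urokinase receptor, had the largest change, -1.27 (SE 0.76), with -0.29, -0.58 and -3.90 in series 2, 3 and 4. MYC partners and targets (9 tested of 10) had medians of -0.01, 0.02 and -0.01 in the 3 comparisons. Mxi1, a MYC antagonist, had the largest change with blebbistatin against pulsed, -0.37 (SE 0.12), and was lower in all 3 series.

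In the other lists and comparisons the largest changes were these. With blebbistatin against non-pulsed, Hbegf had -1.77 (SE 0.71), Plaur -1.55 (SE 0.86), Errfi1 -1.35 (SE 0.67), Nr4a3 -1.21 (SE 0.84), Dusp14 -0.67 (SE 0.22) and the AP-1 gene Fosl2 -0.57 (SE 0.31). The differences in series 2 and 3, which alone hold both groups, were smaller for the first 4, at -0.68 and -0.96 for Hbegf, -0.55 and -0.27 for Plaur, -0.38 and -0.56 for Errfi1 and -0.37 and 0.18 for Nr4a3. They were -0.11 and -0.85 for Dusp14 and -0.53 and 0.09 for Fosl2. Upward, the receptor kinase gene Erbb2 had 0.52 (SE 0.15), the CREB coactivator gene Crtc1 0.47 (SE 0.14) and the MYC target Ncl, for nucleolin, 0.24 (SE 0.11). In pulsed against non-pulsed, Erbb2 had 0.49 (SE 0.13), Crtc1 0.36 (SE 0.13), Mxi1 0.32 (SE 0.12) and the ERK inhibitor gene Spry2 0.27 (SE 0.15), with Hbegf at -0.55 (SE 0.63), the osteopontin gene Spp1 at -0.53 (SE 0.29) and Atf3 at -0.44 (SE 0.56). The largest of the kinase list with blebbistatin against pulsed was Rps6ka3, for the kinase RSK2, at -0.18 (SE 0.11). Hbegf, Plaur, Errfi1, Nr4a3 and Atf3 had far larger standard errors than Erbb2 and Crtc1.

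Markers of other cells mostly had negative fitted changes with blebbistatin against pulsed cultures, where 44.5% of all probe sets tested were negative. Against pulsed cultures, 8 of 8 smooth muscle and pericyte markers had a negative change, with a median of -0.70 and summed linear levels of 11995 to 14319 with blebbistatin, 18781 to 21070 in pulsed cultures and 17156 to 25337 in non-pulsed cultures. So did 8 of 8 macrophage and leukocyte markers, with a median of -0.33, and 8 of 10 fibroblast markers, with a median of -0.27 and summed levels of 30946 to 51712, 35971 to 61394 and 39251 to 61394 in the same order of groups. Endothelial markers had 5 of 5 tested negative with a median of -0.19, at summed levels of 682 to 1184, 739.6 to 1266 and 664 to 774, and 1 of the 7 on the array was below the filter on all arrays. The endothelial sum in series 4 was 1184 with blebbistatin and 1177 in the pulsed array. None of the marker lists had a gene at an adjusted p under 0.05 by limma, and at an unadjusted p under 0.05 limma gave 13 of 41 markers lower and 0 higher in this comparison, against 5.51% and 6.09% of all probe sets. Of the 10 cardiomyocyte markers, 5 had a negative change, and the median was -0.02. The part of these other cells in the values of Dusp1 and the other early genes was not tested.

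**Figure D4:**
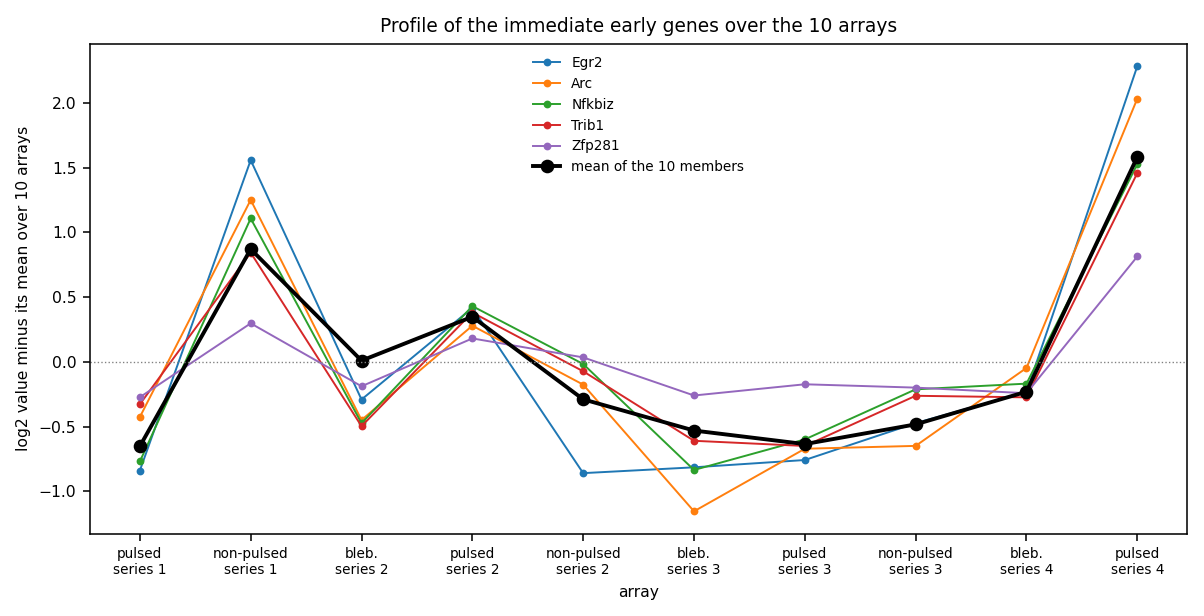
Deviation from the mean over the 10 arrays (vertical axis, log2) on each array (horizontal axis, by culture series) for the mean of the 10 immediate early genes (thick black line, 1 probe set per gene) and the 5 other genes with the most similar profile. The black line is highest at 1.58 in the pulsed array of series 4 and at 0.87 in the non-pulsed array of series 1.

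The genes whose profile over the 10 arrays was most like the mean profile of the 10 genes were Egr2 (Pearson r 0.98), Arc (0.95), Nfkbiz (0.95), Trib1 (0.95) and Zfp281 (0.94), among genes with 1 symbol that are not in the set. The measure runs over 10 arrays that share culture series and groups, so it is given as a description. Egr2 and Arc are themselves counted as early response genes in the lists above. The mean profile itself holds 1 probe set of each member, and members with a wide range weigh more in it. The r of a member is thus raised by construction and cannot be set against that of other genes. Of the members, Nr4a1 (0.95), Fosb (0.93), Junb (0.92) and Myc (0.90) were closest to their common mean. Jun, at 0.52 to 0.67, Fosl1, at 0.65, and Dusp1, at 0.69 and 0.72, were further from it, and Fos 1371283_at, at -0.02, did not follow it.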

How the data were processed

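Total RNA was extracted with Trizol and labelled with biotin, per the labels' protocols. The submitters' processing notes name PLIER and Affymetrix Expression Console 1.1 for the deposited log2 values, of which there is 1 per probe set and array. The settings and the log base were not given in the sources used. Base 2 was assumed because the lowest level of each array, shared by 1990 to 2278 probe sets, then corresponds to 10.0 to 10.97 on the linear scale. Precision is limited by the small number of arrays.

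Of 31099 probe sets, 57 controls and the 25% with the lowest mean (below 5.09) were left out, and 23281 were tested, each on its own. The platform annotation gave 1 symbol to 20826 of the 31042 probe sets, several to 436 and none to 9780. Groups came from the treatment label and culture series from the titles. Changes were fitted on all 10 arrays by limma 3.58.1 (R 4.3.3, moderated two-sided tests) with culture series as a fixed block, and the Benjamini-Hochberg adjustment ran over all probe sets tested. Arrays of the same series deviated together from their group means, at correlations of 0.353 to 0.633 in all 8 pairs, beside a median of -0.256 over 25 pairs of other series and groups. The fit was tested on simulated data.

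The members and the lists of related genes and markers were chosen with earlier results of these data known. Genes named were all members, all MAP kinase phosphatases measured, the gene with the largest change of each list in each comparison, and the 5 genes most like the members' mean profile. For a list, the probe set with the highest mean stood for a gene. Alternatives covered the block, the arrays in the fit, scaling, the filter, the probe set rule, the prior and leaving out each array or series. Promoters came from RefSeq (GRCr8), which need not match the array's design.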

Additional observations from a re-analysis of the deposited data

How the results depend on the processing

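The count of the 14 probe sets passing was 0 in every comparison under all 26 alternatives, and no probe set changed its call in any alternative that fitted it. Adjusted p for Dusp1 1368146_at and 1368147_at went down to 0.086 and 0.116 with blebbistatin against pulsed, and up to 0.77 for each (limma). With blebbistatin against non-pulsed it went down to 0.068 and 0.063, and up to 0.324 for each (limma). Both Dusp1 probe sets and Junb were lower in both comparisons with blebbistatin, and Jun was lower with blebbistatin against pulsed, in every alternative in which they were fitted, which was 24 of 26 for 1368147_at and for 2 of the Jun probe sets. The median change over the 14 was -0.45 to 0.44 for pulsed against non-pulsed when an array or series was left out, -0.61 to 0.047 for blebbistatin against pulsed and -0.93 to -0.010 for blebbistatin against non-pulsed, and negative changes, counted as an alternative chosen after seeing the data, numbered 1 to 11, 6 to 14 and 8 to 14. With only the groups or series compared, 7 were negative for blebbistatin against non-pulsed.

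Without a replicate block for the culture series, 5 of all probe sets passed for blebbistatin against pulsed and 46 for blebbistatin against non-pulsed, beside 3 and 110 with it. A random replicate block gave 14 and 1212, only the groups compared 12 and 2, only the series with both groups 48 and 31, no filter 0 and 1, a stricter filter 6 and 70, and a trended prior 10 and 216. Quantile normalization gave 67 for blebbistatin against non-pulsed, the highest probe set per gene 63 and the mean of probe sets 56, the last pair with fewer features tested. Leaving out an array or series gave 0 to 48 and 0 to 69. Pulsed against non-pulsed had 0 throughout. The causes were not tested.

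These directions turned. In pulsed against non-pulsed, no replicate block gave 0.0061 for Dusp1 1368146_at and 0.11 for Nr4a1, only the groups or series compared gave -0.13 for Junb and -0.087 for Myc, and quantile normalization and median centring gave -0.034 and -0.031 for Junb. In blebbistatin against pulsed, no replicate block gave -0.021 for Fos 1371283_at, and the mean of probe sets gave 0.0069 for Fos. In blebbistatin against non-pulsed, no replicate block gave 0.20 for Egr1, 0.011 for Jun 1374404_at and 0.15 for Myc, a random replicate block gave 0.094 for Egr1 and 0.049 for Myc, and quantile normalization and median centring gave -0.056 and -0.064 for Jun 1369788_s_at. There, only the groups or series compared, which sets aside series 1 and 4, gave 0.53 for Egr1, 0.91 for Fosb, 0.018 for Fosl1, 0.000813 for Jun 1374404_at and 0.54 for Myc.

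When an array or series was left out, the pulsed against non-pulsed change ran over -0.44 to 0.17 and -0.76 to 0.045 for Dusp1 1368146_at and 1368147_at, -0.47 to 0.79 for Egr1, -0.13 to 0.020 and -0.46 to 0.72 for Fos 1371283_at and 1375043_at, -1.19 to 0.81 for Fosb, -1.25 to 0.51 for Fosl1, -0.68 to 0.25 for Ier2, -0.28 to 0.47 for Junb, -0.11 to 0.60 for Myc and -1.03 to 0.60 for Nr4a1. That of blebbistatin against pulsed ran over -0.41 to 0.18 for Egr1, -0.049 to 0.078 and -0.25 to 0.37 for the Fos probe sets in the same order, -1.12 to 1.48 for Fosb, -1.62 to 0.77 for Fosl1, -0.69 to 0.021 for Ier2, -0.49 to 0.43 for Myc and -0.94 to 0.072 for Nr4a1. That of blebbistatin against non-pulsed ran over -0.74 to 0.38 for Egr1, -0.15 to 0.067 and -0.51 to 0.51 for Fos, -2.0 to 0.31 for Fosb, -0.30 to 0.35, -0.32 to 0.17 and -0.41 to 0.18 for Jun 1369788_s_at, 1374404_at and 1389528_s_at, and -0.44 to 0.35 for Myc. The 3 to 4 arrays per group, each from its own culture series, limit the precision of these values.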

Other observations

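With blebbistatin against pulsed cultures, several genes were higher in series 2 and 3 and lower in series 4. Examples are Atf3 (0.76, 1.12 and -1.09 on the log2 scale), Dusp2 (0.93, 0.88 and -1.68) and Fosb (0.47, 1.31 and -3.88), picked after their values were seen. Fosl1, Myc, Dusp6, Batf3 and Id2 had the same order of signs. The difference between series was not tested, because each holds 1 array per group.

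Edn1, the gene for endothelin-1 and a known trigger of immediate early genes in cardiac muscle cells, was picked after its values were seen. It measured 6.37, 6.47 and 8.09 in pulsed cultures with blebbistatin (series 2, 3 and 4), 8.52, 8.20, 7.52 and 8.74 in pulsed cultures (series 1 to 4) and 8.71, 7.38 and 7.55 in non-pulsed cultures (series 1 to 3). It was lower with blebbistatin than in the pulsed array of all 3 series, at -1.83, -1.05 and -0.65, as Dusp1 was. Its fitted log2 change was -1.13 (SE 0.22, adjusted p 0.185 by limma), and it was -1.0 (SE 0.25, adjusted p 0.096 by limma) against non-pulsed cultures.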
